A study of Homo sapiens with 9 samples.

Results

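The bright probe sets without a listed gene were the 1319 probe sets that had no gene symbol in the platform's probe table and a mean log2 signal of at least 8 over the 3 sham arrays. They were chosen from 11721 probe sets without a symbol, among 54613 probe sets tested. A missing symbol means only that the table used here names no gene for that probe set, and no name was looked for elsewhere. The sham signal therefore chose the members, and it is given below as a description with no test.

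Cells of Jurkat, a human T lymphocyte line (Clone E-6 in the series title), were placed in an electroporation cuvette and given a sham exposure, nanosecond electrical pulses (nsEP) or heat shock. Cells of the nsEP group received 100 pulses, each lasting 10 ns, at 150 kV/cm. RNA was collected 4 h after exposure in all 3 groups, and each group had 3 arrays that the labels call biological replicates. All groups shared the same cell line and culture medium, so each comparison is between exposures of 1 cell line.

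A probe set is a group of short oligonucleotides that together report 1 stretch of transcript. In the maker's naming, the plain suffix _at marks probe sets unique to 1 transcript, _s_at marks probes shared by several transcripts, and _x_at marks sets in which some probes are identical or very similar to unrelated sequences. Signal on an _x_at set can therefore come from more than 1 RNA, and the probes were not available here to tell which. Heat shock is known for raising chaperone transcripts, and brief intense pulses are known to make cell membranes permeable and to raise immediate early genes.

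Few of the unlisted probe sets were bright. Of the unlisted class, 11.3% reached a sham mean of 8, against 35.9% of the 41091 probe sets with 1 symbol. The members had a median sham mean of 9.23 and ran from 8.0025 to 15.12. There were 569 members between 8 and 9, 305 between 9 and 10, 197 between 10 and 11, 108 between 11 and 12, and 140 at 12 and over. The 14751 probe sets with 1 symbol and a sham mean of at least 8 served as the class set beside them throughout. Differences between the 2 classes were described and not tested.

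**Figure D1:**
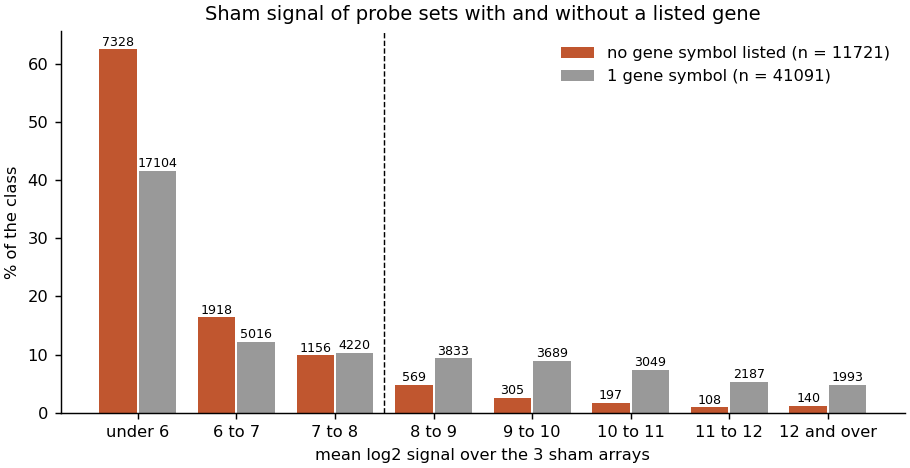
Share of each class of probe sets (y axis, percent of the class) in bands of mean log2 signal over the 3 sham arrays (x axis), with the number of probe sets above each bar; the dashed line marks the threshold of 8. Unlisted probe sets were 569 in the band from 8 to 9 and 140 at 12 and over, and 7328 of the 11721 lay under 6.

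The members also differed in make-up from the dimmer unlisted probe sets. Of the members, 799 (60.6%) had the suffix _at, 298 (22.6%) had _s_at and 203 (15.4%) had _x_at. Among the unlisted probe sets under 8, 86.4% had _at, 4.79% had _s_at and 6.06% had _x_at. In the bright 1-symbol class, 55.8% had _at, 33.4% had _s_at and 9.13% had _x_at. Most members carried low identifier numbers: 793 (60.1%) had 6 digits up to the 22 series, 400 (30.3%) had 6 digits from the 23 series on and 116 (8.79%) had 7 digits. Among the bright 1-symbol class, 83.8% were in the first of these ranges and 9.64% in the second.

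The arrays carried the labelled cell type. Of 11 T lymphocyte markers measured, 11 had a sham mean of at least 8, and their median was 12.33. None of the 6 myeloid markers reached 8 (highest 7.36), and of 5 B cell markers only CD79A did, at 8.74. The exposures were visible in known responders. HSPA6, a heat shock chaperone, had log2 signals of 5.82 to 6.44 in sham, 6.74 to 8.05 after nsEP and 14.93 to 14.99 after heat shock. FOS, an immediate early transcription factor, had 2.61 to 3.84 in sham, 9.64 to 11.29 after nsEP and 12.0025 to 12.44 after heat shock.

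Replicate scatter of the members was slightly above that of 1-symbol probe sets in every band of sham signal. The median SD within groups was 0.304 for members between 8 and 9, against 0.297 for 1-symbol probe sets in that band. It was 0.2816 against 0.2646 between 9 and 10, and 0.2575 against 0.2371 between 10 and 11. It was 0.2262 against 0.2144 between 11 and 12, and 0.204 against 0.1975 at 12 and over. Over all bands the _x_at members had 0.3085, against 0.2704 for the 1-symbol _x_at probe sets. The median log2 signal over the members was 9.25, 9.29 and 9.22 on the sham arrays. It was 9.13, 9.14 and 9.11 after nsEP, below every sham array. It was 9.27, 9.24 and 9.33 after heat shock, a range that overlapped sham. Fewer members stayed at or above 8 on the exposed arrays, with 1228 to 1261 on the sham arrays, 1096 to 1127 after nsEP and 1157 to 1181 after heat shock. A fall in that count is built into a rule that uses the sham arrays. In the sham band from 8 to 9 the group mean was under 8 for 192 of 569 members after nsEP (33.7%, beside 14.9% of the 1-symbol class in the band) and for 140 after heat shock (24.6%, beside 20.4%).

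The members with the suffix _x_at were brighter on the heat shock arrays on the deposited scale. When the arrays were scaled to spike-ins, their median log2 ratio of heat shock to sham was -0.64, beside -0.90 for the 1-symbol _x_at probe sets. On the deposited scale the median of the _x_at members was 9.42, 9.43 and 9.40 on the sham arrays. It was 9.35, 9.20 and 9.31 after nsEP. It was 10.04, 9.77 and 10.18 after heat shock, so that every heat shock array lay above all arrays of the other groups. For the 1-symbol probe sets with the same suffix the median was 10.16 to 10.23 in sham and 10.23 to 10.30 after heat shock. The _at members had medians of 8.97 to 9.02 in sham, 8.76 to 8.82 after nsEP and 8.87 to 9.01 after heat shock.

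**Figure D2:**
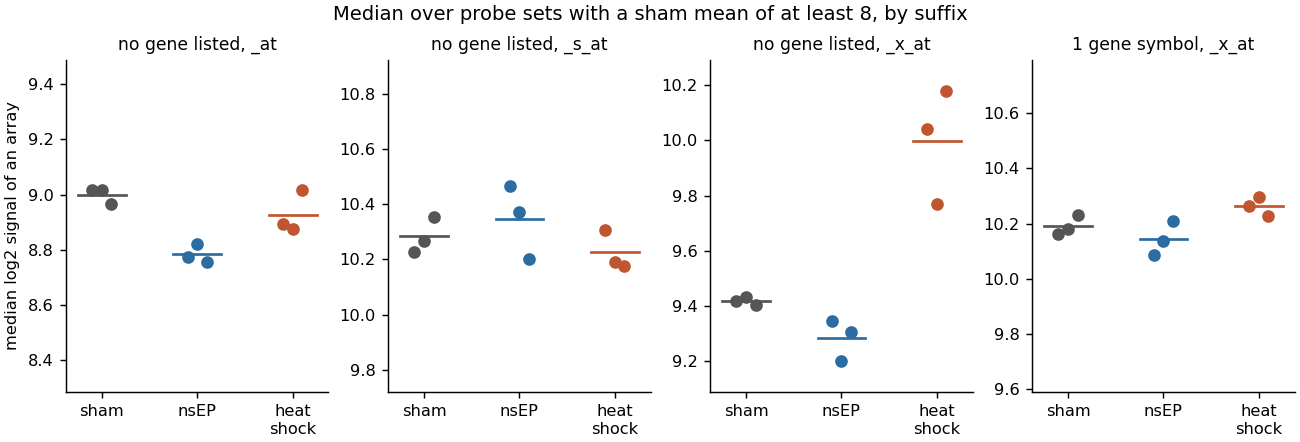
Median log2 signal on each array (y axis, 1 point per array, line at the mean of 3) over members with the suffixes _at, _s_at and _x_at and over 1-symbol probe sets with _x_at, for sham, nsEP and heat shock (x axis); the 4 panels have the same height in log2 units but start at different values. The _x_at members lay at 9.77 to 10.18 after heat shock, above their sham arrays at 9.40 to 9.43. Under spike-in scaling their median log2 ratio of heat shock to sham was -0.64, beside -0.90 for the 1-symbol _x_at probe sets.

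In the comparison of nsEP with sham, 1 member fell and none rose. A log2 ratio is the difference of the group means of log2 signal, and a probe set was called when the limma adjusted p, taken over all 54613 probe sets, was under 0.05. Called were 0 members higher, where 0.0513% of all probe sets were higher, and 1 lower (0.0758%), where 0.00732% of all were lower. At an unadjusted p under 0.05, 26 members were higher (1.97%, with 3.06% of all probe sets) and 194 lower (14.7%, with 3.93% of all). The methods' t-test called 0 of all 54613 probe sets once its p-values were adjusted. The median log2 ratio of the members was -0.11, beside -0.02 for the 1-symbol class and -0.01 for all probe sets, and 474 of the 1319 ratios were above 0. The sham arrays that chose the members also enter this ratio. With members chosen by the heat shock arrays instead, an alternative added after the data were seen, the median was -0.10.

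The size of this shift differed along the identifier series. The 400 members with 6 digits from the 23 series on had a median log2 ratio of -0.33, beside -0.15 for the 1-symbol probe sets in that range. For the 116 members with 7 digits it was -0.24, beside -0.01. For the 793 members up to the 22 series it was -0.02, beside -0.01. By brightness the median was -0.18 between 8 and 9 and 0.06 at 12 and over, beside -0.03 and 0.03 for the 1-symbol class. The rule, the bands and the ratio share the sham arrays, which draws the lowest band toward a fall. The 1-symbol class is not an exact match for this. Unlisted probe sets went from 1156 between 7 and 8 to 569 between 8 and 9, and 1-symbol ones from 4220 to 3833. The size of this effect was not tested. The _s_at members had a median of 0.04, and the _at members one of -0.17.

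The member called lower after nsEP was 231108_at. Its log2 signals were 10.73, 10.40 and 10.56 in sham, 9.19, 9.17 and 9.52 after nsEP and 11.10, 11.06 and 11.16 after heat shock. The 3 groups did not overlap, with nsEP the lowest and heat shock the highest. Its log2 ratio of nsEP to sham was -1.27 (SE 0.16), a 2.41-fold fall, with a limma adjusted p of 0.00817. The call ended without sham replicate 1 (0.064), without sham replicate 3 (0.0576) and without nsEP replicate 2 (0.0746). It also ended under spike-in scaling, without the variance trend, with only the 6 arrays of the comparison and with the methods' t-test.

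The other members with the smallest p values did not pass, and their values are given as such. The member 202068_s_at had log2 signals of 10.67, 11.08 and 10.83 in sham, 11.76, 12.73 and 12.09 after nsEP and 11.98, 12.01 and 11.72 after heat shock. Both exposed groups lay above sham on every array. The limma adjusted p for nsEP was 0.0654 with a log2 ratio of 1.33 (SE 0.22), and without nsEP replicate 1 it was 0.025. The member 208082_x_at had 11.80, 12.04 and 11.39 in sham, 10.51, 10.50 and 10.86 after nsEP and 11.97, 12.31 and 12.53 after heat shock. Its nsEP arrays were lower than all others, with a log2 ratio to sham of -1.12 (limma adjusted p 0.0828). The member 235750_at had 9.77, 9.80 and 9.34 in sham, 7.74, 6.59 and 8.36 after nsEP and 10.02, 10.19 and 9.15 after heat shock. Its ratio of -2.07 was the lowest of any member in this comparison, the nsEP arrays were widely spread, and the limma adjusted p of 0.114 became 0.0464 without nsEP replicate 3.

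The remaining ratios of nsEP to sham named by the same rule were 0.70 for 202647_s_at, 0.93 for 217508_s_at and 1.13 for 223766_at. On the low side they were -1.25 for 217653_x_at and -1.35 for 238299_at. The nsEP and sham arrays did not overlap for any of these 5, and none was called.

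In the comparison of heat shock with sham, 58 members rose and 83 fell on the deposited scale. Called higher were 4.40% of the members, where 1.81% of all probe sets and 1.47% of the 1-symbol class were higher. Called lower were 6.29%, where 2.36% of all probe sets and 7.36% of the 1-symbol class were lower. The median log2 ratio of the members was 0.00, beside -0.07 for the 1-symbol class and 0.18 for all probe sets. With members chosen by the nsEP arrays the median was 0.02.

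The balance of this comparison depended on how the arrays were scaled, though more members were lower than higher at each scaling. With each array centred on its median, 26 members were higher (1.97%) and 254 lower (19.3%), and the median was -0.30. Of all probe sets 1.31% were then higher and 7.06% lower, and of the 1-symbol class 0.712% and 21.4%. Scaled to the 24 poly-A spike-in probe sets, 1 member was higher (0.0758%) and 213 lower (16.1%). Of all probe sets 0.287% were then higher and 6.6% lower, and of the 1-symbol class 0.142% and 18.4%. The median was -1.03 for the members, -1.09 for the 1-symbol class and -0.85 for all probe sets. The spike-in means were 10.74, 9.74 and 10.36 in sham, 9.89, 10.02 and 11.16 after nsEP and 11.16, 11.07 and 11.69 after heat shock. The heat shock arrays were above all sham arrays, and whether the spike-ins were added in equal amounts was not tested. The count of members called higher fell to 35 without sham replicate 1, 27 without sham replicate 2, 30 without sham replicate 3, 29 without heat shock replicate 1 and 24 without heat shock replicate 3. The count called lower fell to 42, 39 and 47 without sham replicates 1, 2 and 3. It fell to 36, 52 and 49 without heat shock replicates 1, 2 and 3. Over all probe sets the count higher fell from 987 to 681, 596 and 652 without sham replicates 1, 2 and 3. It was 488 and 503 without heat shock replicates 1 and 3. The count lower over all probe sets fell from 1289 to 682, 580 and 740 without the sham replicates. Without heat shock replicates 1, 2 and 3 it was 642, 824 and 750.

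Of the 58 rises, 28 were _x_at members. Of the 203 members with this suffix, 28 were called higher (13.8%) and 1 lower, and 169 had a ratio above 0, with a median of 0.39. Of the 1347 1-symbol probe sets with this suffix, 50 were higher (3.71%) and 49 lower, with a median of 0.13. By band of sham signal, the median of the _x_at members was 0.42, 0.35, 0.30 and 0.39 in the 4 bands from 8 to 12, beside 0.12, 0.07, 0.11 and 0.00 for the 1-symbol _x_at probe sets. At 12 and over the medians were close, at 0.43 and 0.34. Of the 799 _at members, 25 were higher (3.13%) and 68 lower (8.51%), with a median of -0.16. Of the 1-symbol _at probe sets 1.02% were higher and 9.5% lower, with a median of -0.15. Without the _x_at members, 30 of the other 1116 were higher (2.69%) and 82 lower (7.35%). For the 1-symbol class without that suffix the shares were 1.25% and 7.73%. Under median centring 11 of the _x_at members were higher and 5 lower, with a median of 0.09. The median of the 1-symbol _x_at probe sets was then -0.175. Under spike-in scaling 1 member was higher and 5 lower, with a median of -0.64, beside -0.90 for the 1-symbol _x_at probe sets. Both scalings move all probe sets of an array by the same amount, so the distance between the classes on an array stays. Under quantile normalization 30 _x_at members were higher and 1 lower, with a median of 0.38, beside 0.09. The count of _x_at members called higher was 17, 9 and 11 without sham replicates 1, 2 and 3. It was 10 without heat shock replicate 1 and 8 without heat shock replicate 3. For the 1-symbol _x_at probe sets the same counts were 32, 19 and 27, then 22 and 24, beside 50 in the main fit. Without the variance trend 5 _x_at members were higher, and with the methods' t-test after adjustment 3 were.

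**Figure D3:**
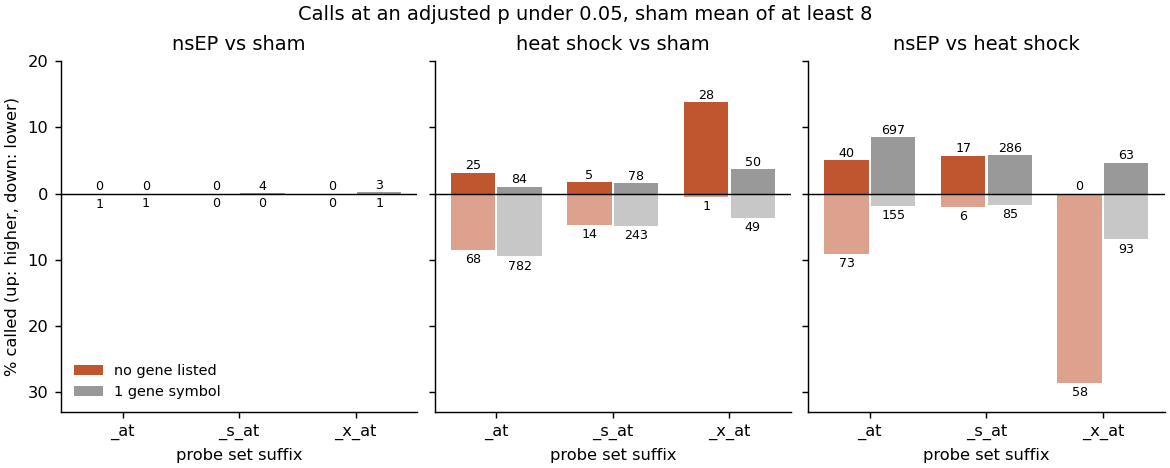
Percent of probe sets with a sham mean of at least 8 that were called (y axis, full colour upward for higher, pale downward for lower; numbers are counts) by suffix (x axis) in each of the 3 comparisons, for members and 1-symbol probe sets. Of the 203 _x_at members, 28 were higher after heat shock than in sham and 58 were lower after nsEP than after heat shock. These counts fell to 1 and 1 under spike-in scaling. For the 1347 1-symbol _x_at probe sets the counts were 50 and 93, and 3 and 3 under spike-in scaling.

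The largest rise after heat shock was in 1564155_x_at. Its log2 signals were 7.98, 8.53 and 7.71 in sham, 7.06, 6.56 and 7.67 after nsEP and 11.22, 10.995 and 11.30 after heat shock. The heat shock arrays stood far above the rest, a log2 ratio to sham of 3.10 (SE 0.28) or 8.57-fold, with a limma adjusted p of 6.81e-05. Of the 8 named rises, it was the one that stayed called under spike-in scaling. The member 217313_at had 9.77, 9.86 and 9.63 in sham, 9.75, 9.62 and 10.34 after nsEP and 12.46, 12.03 and 11.80 after heat shock. Sham and nsEP overlapped and heat shock did not reach either, with a log2 ratio to sham of 2.34 (SE 0.21) and a limma adjusted p of 6.6e-05.

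A further 3 of the named rises had the suffix _x_at. The member 243484_x_at had 8.17, 8.60 and 8.16 in sham, 7.96, 8.43 and 8.42 after nsEP and 10.37, 10.59 and 10.28 after heat shock. Only the heat shock arrays passed 10, and the log2 ratio was 2.10 (SE 0.20, limma adjusted p 0.000106). The member 1570198_x_at had 8.06, 8.10 and 8.62 in sham, 8.82, 8.45 and 8.96 after nsEP and 10.25, 9.95 and 10.33 after heat shock. Its log2 ratio of heat shock to sham was 1.92 (SE 0.21). The member 234723_x_at had 9.14, 8.82 and 8.69 in sham, 8.59, 8.24 and 8.58 after nsEP and 10.21, 10.52 and 11.52 after heat shock. Its log2 ratio was 1.87 (SE 0.28), and heat shock replicate 3 was the highest of its group.

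The last 3 named rises were plain _at probe sets. The member 230387_at had 9.09, 8.96 and 8.95 in sham, 8.82, 9.07 and 7.81 after nsEP and 10.84, 10.54 and 11.14 after heat shock, a log2 ratio of 1.84 (SE 0.28). The member 231199_at had 9.10, 8.45 and 8.97 in sham, 8.37, 8.18 and 7.56 after nsEP and 10.57, 10.47 and 10.96 after heat shock, a log2 ratio of 1.83 (SE 0.25). The member 242403_at had 8.14, 8.70 and 8.70 in sham, 8.40, 8.69 and 8.08 after nsEP and 10.37, 10.07 and 10.51 after heat shock, a log2 ratio of 1.80 (SE 0.22). In each of the 8, every heat shock array lay above every nsEP array, and above every sham array as the naming rule required. All 8 calls held when any 1 array was left out.

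**Figure D4:**
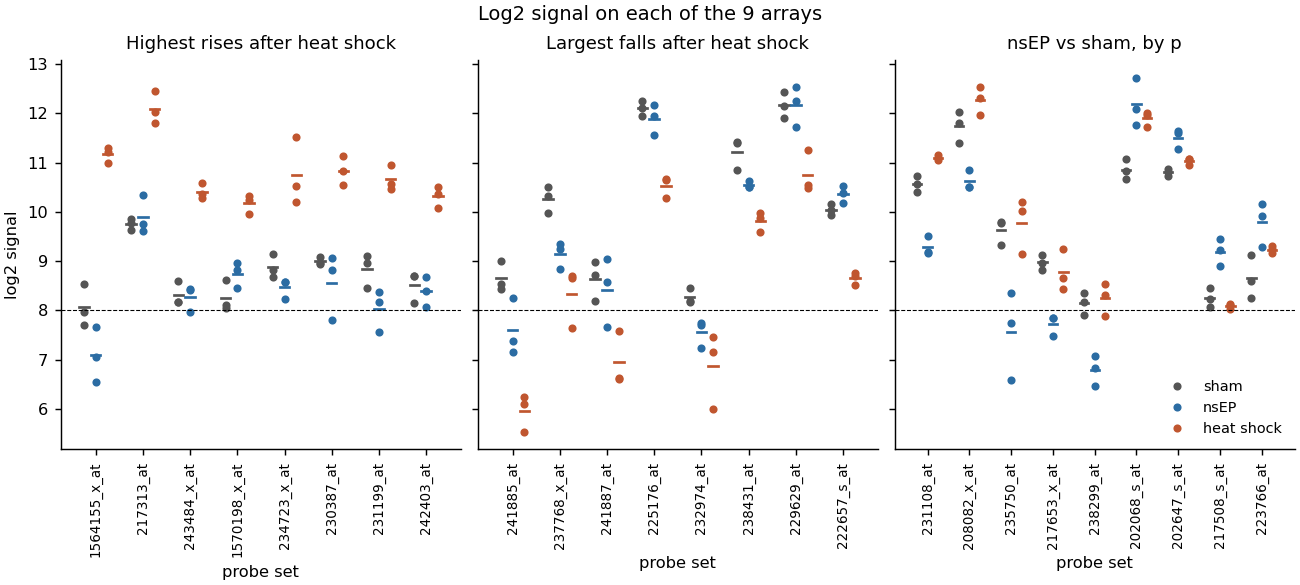
Log2 signal on each of the 9 arrays (y axis, points by array and lines at group means) for the members named in the comparisons with sham (x axis); the dashed line marks 8. Heat shock arrays lay at 10.995 to 11.30 for 1564155_x_at and at 5.54 to 6.23 for 241885_at, and nsEP arrays at 9.17 to 9.52 for 231108_at.

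The largest fall after heat shock was in 241885_at. Its log2 signals were 9.004, 8.43 and 8.54 in sham, 8.26, 7.38 and 7.16 after nsEP and 6.10, 5.54 and 6.23 after heat shock. The groups were ordered sham, nsEP and heat shock without overlap, and the log2 ratio of heat shock to sham was -2.70 (SE 0.34, limma adjusted p 0.000726), a 6.50-fold fall. The next, 237768_x_at, was the 1 _x_at member called lower. It had 10.33, 9.98 and 10.50 in sham, 9.35, 8.83 and 9.25 after nsEP and 8.66, 7.64 and 8.69 after heat shock, and its log2 ratio was -1.94 (SE 0.28). Both exposed groups lay below sham, and nsEP was not called.

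Among the brighter members, 225176_at had 12.11, 11.94 and 12.25 in sham, 11.56, 11.96 and 12.18 after nsEP and 10.28, 10.65 and 10.66 after heat shock. Its log2 ratio of heat shock to sham was -1.57 (SE 0.18, limma adjusted p 0.000422), while sham and nsEP overlapped. The member 229629_at had 11.90, 12.43 and 12.16 in sham, 12.26, 12.55 and 11.73 after nsEP and 10.48, 11.26 and 10.54 after heat shock, a log2 ratio of -1.40 (SE 0.25). The member 222657_s_at had 9.93, 10.17 and 10.04 in sham, 10.39, 10.53 and 10.18 after nsEP and 8.71, 8.51 and 8.75 after heat shock, a log2 ratio of -1.39 (SE 0.16). The lowest nsEP array of 222657_s_at was above every sham array, and its nsEP ratio was not called. The member 238431_at had 11.42, 11.39 and 10.86 in sham, 10.62, 10.50 and 10.51 after nsEP and 9.60, 9.98 and 9.87 after heat shock, a log2 ratio of -1.41 (SE 0.18).

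The other 2 named falls were less stable when arrays were left out. The member 241887_at had 8.99, 8.20 and 8.71 in sham, 9.04, 8.58 and 7.66 after nsEP and 7.58, 6.62 and 6.64 after heat shock. Its log2 ratio was -1.69 (SE 0.37) with a limma adjusted p of 0.0241, and the call ended without sham replicate 1 (0.0984), sham replicate 3 (0.0804), heat shock replicate 2 (0.0899) or heat shock replicate 3 (0.0942). The member 232974_at had 8.18, 8.46 and 8.19 in sham, 7.24, 7.71 and 7.75 after nsEP and 5.99, 7.15 and 7.45 after heat shock. Its log2 ratio was -1.41 (SE 0.35) with a limma adjusted p of 0.0428, and the call ended without sham replicate 1 (0.102), 2 (0.153) or 3 (0.101), nsEP replicate 2 (0.0603), or heat shock replicate 1 (0.116) or 2 (0.0694).

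The log2 ratio of nsEP to heat shock used none of the arrays that chose the members, but its test took the variance from all 9 arrays, sham included. In this comparison 57 members were higher after nsEP and 139 were lower. Called higher were 4.32%, where 2.31% of all probe sets and 7.17% of the 1-symbol class were higher. Called lower were 10.5%, where 2.65% of all probe sets and 2.28% of the 1-symbol class were lower. The median log2 ratio was -0.09, beside 0.05 for the 1-symbol class and -0.18 for all probe sets. With only the 6 arrays of the comparison in the fit, 36 members were higher (2.73%, with 1.46% of all probe sets) and 109 lower (8.26%, with 1.99% of all).

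This split turned with the scaling, as did that of all probe sets. With each array centred on its median, 197 members were higher (14.9%) and 87 lower (6.6%), and the median was 0.23. Of all probe sets 6.99% were then higher and 1.78% lower, and of the 1-symbol class 21% and 1.05%. Under spike-in scaling 74 members were higher (5.61%) and 1 lower (0.0758%), and the median was 0.86. Of all probe sets 3.26% were then higher and 0.255% lower, and of the 1-symbol class 8.86% and 0.115%. The count called higher was 22 without nsEP replicate 2, 94 without nsEP replicate 3, 25 without heat shock replicate 1 and 31 without heat shock replicate 3. The count called lower was 83 without heat shock replicate 3. For the same left-out arrays, the count higher over all probe sets was 576, 1917, 688 and 683, beside 1261 in the main fit. The count lower over all probe sets was 660 without heat shock replicate 3, beside 1446.

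The _x_at members held 58 of the 139 called lower. That was 28.6% of the 203, beside 6.90% (93) of the 1-symbol probe sets with the same suffix, and their median log2 ratios were -0.44 and -0.13. None of the 203 was called higher by limma on the deposited scale. Called higher were 3 with the replicate block, and 1 each with quantile normalization, with array weights and after removal of dim probe sets. At an unadjusted p under 0.05, 7 of the 203 were higher and 93 lower, where 7.44% and 11.5% of all probe sets were. Called lower were 29 without the variance trend, 51 with only the 6 arrays of the comparison, and 1 with the methods' t-test after adjustment, which called 0 higher. The share called lower was 34.6% of those between 8 and 9, 33.3% between 9 and 10, 36.0% between 10 and 11, 30.8% between 11 and 12 and 2.78% of the 36 at 12 and over. Under median centring 45 of the 203 were lower and 5 higher, with a median of -0.12. The median of the 1-symbol _x_at probe sets was then 0.19. Under spike-in scaling 1 of the 203 was lower and 5 higher, with a median of 0.51, beside 0.82 for the 1-symbol _x_at probe sets. Left-out arrays gave 42 to 72 called lower, beside 59 to 169 of the 1-symbol _x_at probe sets.

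The _at members had 40 higher (5.01%) and 73 lower (9.14%) of 799, where the 1-symbol _at probe sets had 697 higher (8.47%) and 155 lower (1.88%). The _s_at members had 17 higher and 6 lower of 298 (5.70% and 2.01%), beside 5.80% and 1.72% for the 1-symbol _s_at probe sets. By identifier, 70 of the 400 members from the 23 series on were lower (17.5%, beside 4.92%) and 49 of the 793 up to the 22 series (6.18%, beside 1.88%).

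**Figure D5:**
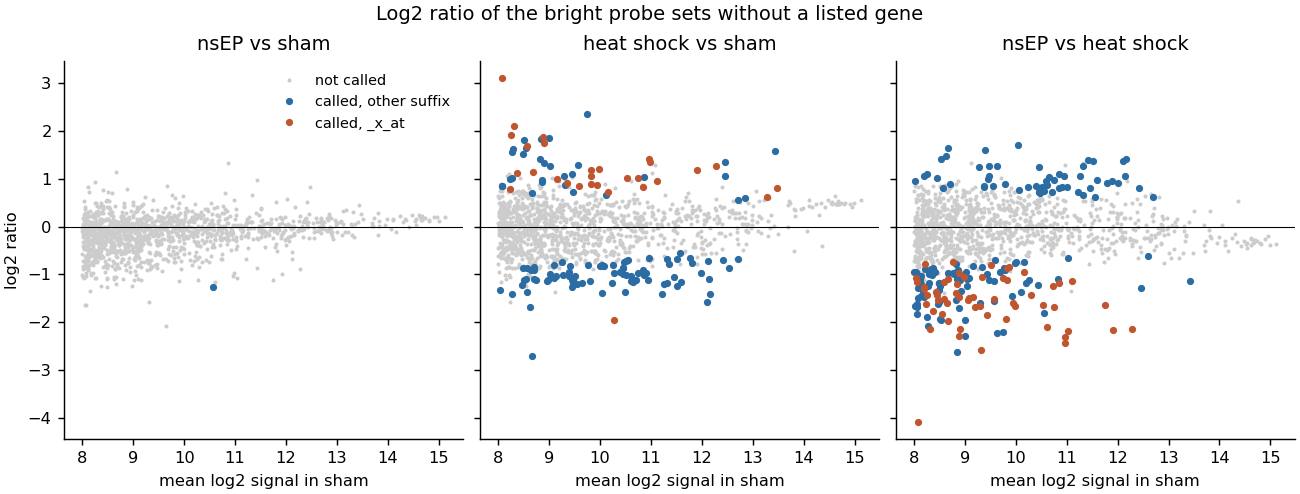
Log2 ratio (y axis) against mean log2 signal in sham (x axis) for each of the 1319 members in the 3 comparisons, with called members coloured by suffix. The called _x_at members lay almost all above 0 for heat shock against sham (28 higher, 1 lower) and all below 0 for nsEP against heat shock (58 lower), while under spike-in scaling the counts were 1 higher and 5 lower and, for nsEP against heat shock, 5 higher and 1 lower.

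The lowest ratio of nsEP to heat shock was -4.08 (SE 0.28, limma adjusted p 8.94e-06) in 1564155_x_at, whose values are given above, a 16.9-fold lower level. It was also the member called lower under spike-in scaling. The member 231199_at followed at -2.63 (SE 0.25), and both 234723_x_at and 230387_at were at -2.28 (SE 0.28). The member 235750_at was at -2.22 (SE 0.39), with nsEP replicate 2 as its lowest array.

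The other 3 named falls were _x_at members. The member 215587_x_at had 9.44, 9.23 and 9.26 in sham, 8.08, 6.65 and 8.47 after nsEP and 10.40, 9.91 and 10.61 after heat shock. The groups did not overlap, with sham between the exposures, and the log2 ratio of nsEP to heat shock was -2.57 (SE 0.37). The member 217679_x_at had 11.02, 11.05 and 10.81 in sham, 9.99, 9.53 and 10.26 after nsEP and 12.44, 11.88 and 12.79 after heat shock. Sham again lay between the exposures, and the log2 ratio was -2.44 (SE 0.23). The member 207730_x_at had 11.16, 11.32 and 10.45 in sham, 10.04, 9.89 and 10.11 after nsEP and 11.98, 11.78 and 13.19 after heat shock, a log2 ratio of -2.31 (SE 0.32). Heat shock replicate 3 was the highest array of all 3 probe sets.

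Of the 8 members most above heat shock after nsEP, 5 were also named falls of heat shock against sham, a comparison that shares the heat shock arrays. The ratio of nsEP to heat shock was 1.71 (SE 0.16) in 222657_s_at, 1.42 (SE 0.25) in 229629_at and 1.37 (SE 0.18) in 225176_at. It was 1.64 (SE 0.34) in 241885_at, where the limma adjusted p of 0.0149 became 0.0534 without nsEP replicate 1 and 0.0552 without heat shock replicate 2. It was 1.48 (SE 0.37) in 241887_at, where the limma adjusted p of 0.041 rose to 0.0515 and 0.0628 without sham replicates 1 and 3, to 0.131 and 0.141 without nsEP replicates 1 and 2, and to 0.128 and 0.142 without heat shock replicates 2 and 3.

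A further 3 were named in this direction alone. The member 222815_at had 9.30, 9.45 and 9.43 in sham, 9.71, 10.07 and 10.10 after nsEP and 8.29, 8.41 and 8.37 after heat shock. Each group was tight and none overlapped, and the log2 ratio was 1.60 (SE 0.17, limma adjusted p 0.000203). The member 202539_s_at had 11.22, 11.59 and 11.47 in sham, 12.49, 12.84 and 11.88 after nsEP and 11.28, 11.10 and 10.62 after heat shock, a log2 ratio of 1.40 (SE 0.24). The member 205246_at had 8.41, 8.70 and 8.49 in sham, 9.28, 9.55 and 8.41 after nsEP and 7.77, 7.71 and 7.52 after heat shock. Its log2 ratio was 1.41 (SE 0.27), with nsEP replicate 3 no higher than the lowest sham array, and the limma adjusted p of 0.00962 became 0.0514 without nsEP replicate 2.

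The brightest members were not called in any comparison. The brightest, 200031_s_at, had log2 signals of 15.07, 14.94 and 15.35 in sham, 15.13, 15.04 and 15.77 after nsEP and 15.54, 15.72 and 15.75 after heat shock. The next was 200017_at, with 15.03, 14.82 and 15.13 in sham, 14.98, 14.85 and 15.53 after nsEP and 15.47, 15.45 and 15.56 after heat shock. The sham means of the other 6 were 14.96 for 221798_x_at, 14.90 for 206559_x_at, 14.82 for 200869_at, 14.80 for 221475_s_at, 14.73 for 213801_x_at and 14.69 for 211720_x_at. In all 8 nsEP replicate 3 was the highest nsEP array, and the log2 ratios of heat shock to sham lay between 0.40 and 0.55.

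The widest scatter within groups, an SD of 1.09, was in 1568408_x_at, with 8.27, 8.19 and 9.54 in sham, 8.97, 9.29 and 7.30 after nsEP and 10.63, 8.40 and 8.14 after heat shock. The member 1559776_at (SD 0.92) had 8.03, 9.79 and 8.51 in sham, 8.43, 9.70 and 7.96 after nsEP and 7.76, 9.56 and 8.15 after heat shock. Replicate 2 was the highest array of 1559776_at in each group. The SD was 0.92 in 209671_x_at, where replicate 2 was also the highest array in each group. It was 0.88 in 228854_at, where replicate 1 was the lowest array in each group. In 1568408_x_at the arrays followed no such order. No ratio of these 4 members was called.

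At the threshold, 235912_at and 217691_x_at lay just inside with sham arrays of 7.92, 8.10 and 7.98 and of 8.19, 8.08 and 7.74. Just outside lay 236923_x_at with 8.22, 8.19 and 7.58 and 1560071_a_at with 8.09, 8.31 and 7.59. The scatter of these arrays was wider than the distance of the means from 8. Of the 10402 unlisted probe sets under 8 in sham, 103 were called higher after heat shock and had a heat shock mean of at least 8. The matching count for nsEP was 0. These conditions select rises, so the 103 only describe what the sham rule left out. The same count was not made for the 1-symbol class. Of the 1319 members, 244 were called in at least 1 of the 3 comparisons and 1075 in none. The 244 were 18.5% of the members, beside 6.35% of all probe sets and 12.2% of the 1-symbol class.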

How the data were processed

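Total RNA of Jurkat cells was measured on 9 Affymetrix human genome arrays, 3 per group. Groups and replicate numbers came from the sample titles. The deposited values were log2 signals that the authors made from MAS5 signals, the tool named in the submitters' processing notes. MAS5 scales each array by its trimmed mean. Of 54675 probe sets, 62 controls were set aside. Members and lists were chosen with earlier results of these data known.

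The values were tested as deposited with limma 3.58.1 in R 4.3.3, in 1 fit over all 9 arrays with a variance that follows the signal, and p-values were adjusted by Benjamini-Hochberg over all 54613 probe sets. limma replaced the Student's t-test of the authors' methods, which was kept as an alternative. Their thresholds (an unadjusted p of 0.05 and a log2 ratio of 2 in size) called 1 member for nsEP against sham (0.0758%, with 0.771% of all probe sets), 4 for heat shock against sham (0.303%, with 2.13%) and 16 for nsEP against heat shock (1.21%, with 2.30%). Named were the 8 largest rises and 8 largest falls per comparison among called members with groups that did not overlap (or up to 4 per direction with the smallest p, as values only), the 8 brightest, the 4 widest in scatter, and 2 on each side of the threshold. The fit was tested on simulated data. An exact permutation test of 3 against 3 arrays cannot go below p = 0.1, and the number of arrays limits the precision. Alternatives changed the scaling, an added offset of 32 signal units, the filter, the variance model, the weights, the arrays in the fit, the test and the rule for members.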

Additional observations from a re-analysis of the deposited data

How the results depend on the processing

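Counts of called members and their median log2 ratios were recomputed under each alternative. Of 779 recomputed values of named members, none reversed a call, 690 stayed on their side of the threshold, 80 lost their call and 9 gained one. The losses were uneven over the settings. Of the 41 named results, the methods' t-test ended the call of 29, spike-in scaling of 15 and the fit without the variance trend of 10.

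For nsEP against sham, 1 member was called higher with dim probe sets left out, with array weights and with the replicate block, where the main fit called 0. Called lower were 3 with dim probe sets left out or array weights, and 0 under spike-in scaling, without the variance trend, with only the 6 arrays of the comparison or with the methods' t-test. Leaving out 1 array gave 0 to 1 higher and 0 to 2 lower. For heat shock against sham, the counts higher and lower were 26 and 254 with median centring, 1 and 213 with spike-in scaling, 14 and 12 without the variance trend, and 10 and 6 with the methods' t-test. Array weights gave 129 lower. Members from a sham mean of 7 or 9 gave 107 or 33 higher, and leaving out the _s_at and _x_at members gave 25. Leaving out 1 array gave 24 to 80 higher and 36 to 119 lower. For nsEP against heat shock, the counts higher and lower were 197 and 87 with median centring, 74 and 1 with spike-in scaling, 6 and 59 without the variance trend, and 0 and 3 with the methods' t-test (358 at an unadjusted p under 0.05). Dim probe sets left out gave 89 higher, and only the 6 arrays gave 36. Members from 7 or 9 gave 255 or 63 lower, and leaving out the _s_at and _x_at members gave 75. Leaving out 1 array gave 22 to 94 higher and 83 to 167 lower. Counts over all probe sets moved as well. For heat shock against sham they were 987 higher and 1289 lower in the main fit, and 558 and 279 without the variance trend. The cause of these changes was not tested.

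The median log2 ratio was counted as moved when it shifted by more than the SD between replicate arrays combined over both groups. An earlier form of this measure used the arrays of 1 group only and marked nearly every setting as moved. It was replaced after those labels were seen, and the full ranges are therefore given. For nsEP against sham the median ran from -0.18 to -0.0586 over all settings: -0.18 with spike-in scaling, -0.16 and -0.0586 for members from 7 and 9, and -0.17 without the _s_at and _x_at members. For heat shock against sham it ran from -1.03 to 0.0628: -1.03 with spike-in scaling, -0.30 with median centring, -0.16 without the _s_at and _x_at members, 0.06 for members from 7 and 0.0628 for members by all 9 arrays. Its sign at 0.00 carries no direction. For nsEP against heat shock it ran from -0.20 to 0.86: 0.86 with spike-in scaling, 0.23 with median centring, -0.20 and -0.0416 for members from 7 and 9, and -0.0233 without the _s_at and _x_at members. Choosing members by other arrays, and counting _x_at members under each setting, were added after the data were seen.

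Over all probe sets, same-numbered arrays showed little sign of pairing, and pairing among the bright ones alone was not tested. Deviations of same-numbered arrays correlated at -0.07 to 0.05, and the replicate block gave 1 member higher for nsEP against sham and, among _x_at members, 3 higher for nsEP against heat shock where the main fit called 0. The counts over all members in the other directions and comparisons stayed within 1.5 times the main ones. The labels do not say whether replicates came from separate cultures, so p-values measure only the spread between these arrays. Signals near 8 scattered more than bright ones.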
